A study of Arabidopsis thaliana with 30 samples.

Results

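The genes described are 7 Arabidopsis thaliana regulators of petal and stamen identity, chosen by locus number from the 33602 loci of the deposited count tables. They are the B-class organ identity genes AP3 (AT3G54340) and PI (AT5G20240), the F-box gene UFO (AT1G30950), the zinc finger genes SUP (AT3G23130) and RBE (AT5G06070), and the glutaredoxin genes ROXY1 (AT3G02000) and ROXY2 (AT5G14070). All 7 had counts in both tables and passed the low-count filter in each of the 6 pairwise comparisons of the 4 groups.

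Every plant carried a pSHP2-GAL4 driver with a pUAS-3xYpet reporter, a yellow fluorescent protein (YFP). It had been crossed to a line with the ap1 and cal mutations and a pAP1-AP1::GR transgene, in which AP1 is fused to the glucocorticoid receptor. All 4 groups share this background, so none of them is wild type, and AP1 counts cannot separate an endogenous gene from the transgene. Age and hormone treatment are not given in the labels used here. NO-SORT (n = 4) was whole inflorescences frozen without sorting, ALL-SORT (n = 4) was protoplasts passed through the sorter, and YFP-NEG (n = 4) and YFP-POS (n = 3) were protoplasts sorted as reporter-negative and reporter-positive. YFP-POS therefore stands for cells in which the SHP2 promoter was active, chiefly the medial domain of the gynoecium. The libraries are biological replicates per the labels, which do not tie them to numbers of plants.

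In the ABC model of flower development, the MADS-domain proteins AP3 and PI form a heterodimer. It gives petals together with AP1 and SEPALLATA (SEP) proteins, and stamens together with AGAMOUS (AG) and SEP proteins. UFO is a subunit of an SCF ubiquitin ligase and acts with LEAFY (LFY) to switch on AP3. SUP sets the border between stamens and carpels and keeps B-class expression out of the centre of the flower, and RBE is a repressor needed for petal growth. ROXY1 and ROXY2 bind TGA-type bZIP factors, act in petal initiation (ROXY1) and act redundantly in anther development. The gynoecium forms from carpels, the organs that B-class genes do not specify.

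ROXY1 and ROXY2 are the most similar genes of the set, and the stretch of coding sequence that they share is shown because it bounds how well short reads tell them apart. Both come from the RefSeq TAIR10.1 assembly, at chr3:332691-332754 on the minus strand for ROXY1 and chr5:4542089-4542152 on the plus strand for ROXY2. Each is written 5′ to 3′, and the capitals mark the 40 bases that are identical.
ROXY1: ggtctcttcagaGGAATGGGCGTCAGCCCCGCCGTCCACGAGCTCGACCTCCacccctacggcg
ROXY2: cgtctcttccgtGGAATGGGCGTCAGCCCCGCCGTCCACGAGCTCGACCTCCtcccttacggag
The coding sequences of 411 and 423 bases were identical at 74.9% of 411 aligned positions, and 40 bases was the longest run without a difference. Of all windows of 30 bases in the transcripts, 11 of 769 in ROXY1 (1.43%) and 11 of 777 in ROXY2 (1.42%) occurred in the other gene. No window of 30 bases in AP3, PI, SUP, RBE or UFO occurred in another gene. Reads were of 125 cycles, so nearly every read of this pair held a base that separates them. AP3 and PI were identical at 54.8% of aligned positions with a longest run of 15 bases, and SUP and RBE at 54.9% with a longest run of 9 bases. An overlap bears on ROXY1. In the RefSeq annotation all 798 of its exon bases lie inside exons of ACR6 (AT3G01990), which is on the other strand. The libraries were made with a strand-specific kit, but whether the counting used strand is not given in the sources used here. The submitters' processing notes name TAIR10, and whether the annotation used for counting held this overlap is not given either. ROXY1 values are therefore uncertain to that extent, and those of ACR6 are given beside them. The other 6 genes overlap no annotated neighbour.

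The 250 bases upstream of the annotated gene starts are shown for AP3 and PI, the pair whose proteins act as a heterodimer. They are read from TAIR10.1 at chr3:20121315-20121564 on the minus strand for AP3 and chr5:6828654-6828903 on the plus strand for PI, 5′ to 3′. Capitals mark TGACG, the core that TGA factors are known to bind.
AP3: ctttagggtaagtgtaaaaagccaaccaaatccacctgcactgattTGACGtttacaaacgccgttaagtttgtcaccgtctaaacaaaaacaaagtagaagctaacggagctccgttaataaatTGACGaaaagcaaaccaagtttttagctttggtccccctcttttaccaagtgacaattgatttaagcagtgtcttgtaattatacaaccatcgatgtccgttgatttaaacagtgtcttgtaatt
PI: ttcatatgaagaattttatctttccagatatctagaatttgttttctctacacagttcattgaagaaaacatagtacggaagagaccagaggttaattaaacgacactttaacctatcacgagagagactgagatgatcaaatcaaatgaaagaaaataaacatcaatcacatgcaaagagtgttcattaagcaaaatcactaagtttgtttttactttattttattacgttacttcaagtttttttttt
A window from 250 bases before to 50 bases after the gene start was searched on both strands. TGACG occurred in the window of AP3, 204 and 125 bases before the start, and in none of the other 6 windows. It occurred in 23.07% of 27443 such windows of the genome. CCANTG, a core of LFY sites, was in none of the 7 windows and in 25.65% of all windows. The CArG box, the motif of MADS-domain proteins, was searched only in its strict form: CC, then 6 bases of A or T, then GG. That form was in none of the 7 and in 3.05% of all windows, and looser forms of the box were not searched. These windows are short, and nothing on binding follows from a match or its absence.

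The libraries held 12644721 to 21027032 counts each. Replicates of a group differed by more than sampling noise in every pair. The labelled domain was checked with markers of the gynoecium medial domain (SHP2, SHP1, CRC, STK, SPT, NGA3, HEC1): all 7 were higher in YFP-POS than in the YFP-NEG libraries, and their summed level was 629 to 948 CPM (counts scaled to library depth) in YFP-POS against 66.9 to 86.1 CPM in YFP-NEG. Anther and tapetum markers (SPL, DYT1, TDF1, AMS, MS1) summed to 3.84 to 6.58 CPM in YFP-POS, 25.6 to 49.6 in YFP-NEG, 16.9 to 21.1 in ALL-SORT and 11.1 to 53.6 in NO-SORT. Of the 5, all 4 that passed the filter were called lower in YFP-POS against YFP-NEG. In that comparison 24.4% of all genes tested were lower and 24.4% higher. Meristem markers (STM, WUS, CLV3) summed to 71.2 to 90.2 CPM in YFP-POS and 66.6 to 91.8 CPM in YFP-NEG. STM and WUS were not called between these groups, and CLV3 was below the filter. Stress genes (WRKY40, ZAT12, RRTF1, CML37) summed to 2.54 to 16.9 CPM in NO-SORT, 686 to 3851 in ALL-SORT, 3003 to 4348 in YFP-NEG and 1318 to 2118 in YFP-POS. ALL-SORT replicate 4 stood apart at 686 CPM, where the other ALL-SORT libraries were at 2582 or more. NO-SORT replicate 1 was the highest of its group at 16.9 CPM, where the others were at or under 5.17. Comparisons with these groups are given with and without these libraries where that changes a call.

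Levels are CPM scaled by the TMM method of edgeR. To set genes beside each other, CPM was divided by exon length (CPM per kb). In NO-SORT, AP3 stood at 150.7 ± 14.0 CPM per kb (SD, n = 4) and PI at 133 ± 17.4. The other genes were far below them. ROXY1 was at 13.9 ± 2.95 and UFO at 7.57 ± 2.53. ROXY2 was at 2.98 ± 0.756, SUP at 2.40 ± 0.209 and RBE at 1.05 ± 0.218. The ranges of neighbours in this order overlapped for AP3 and PI and for ROXY2 and SUP.

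**Figure D1:**
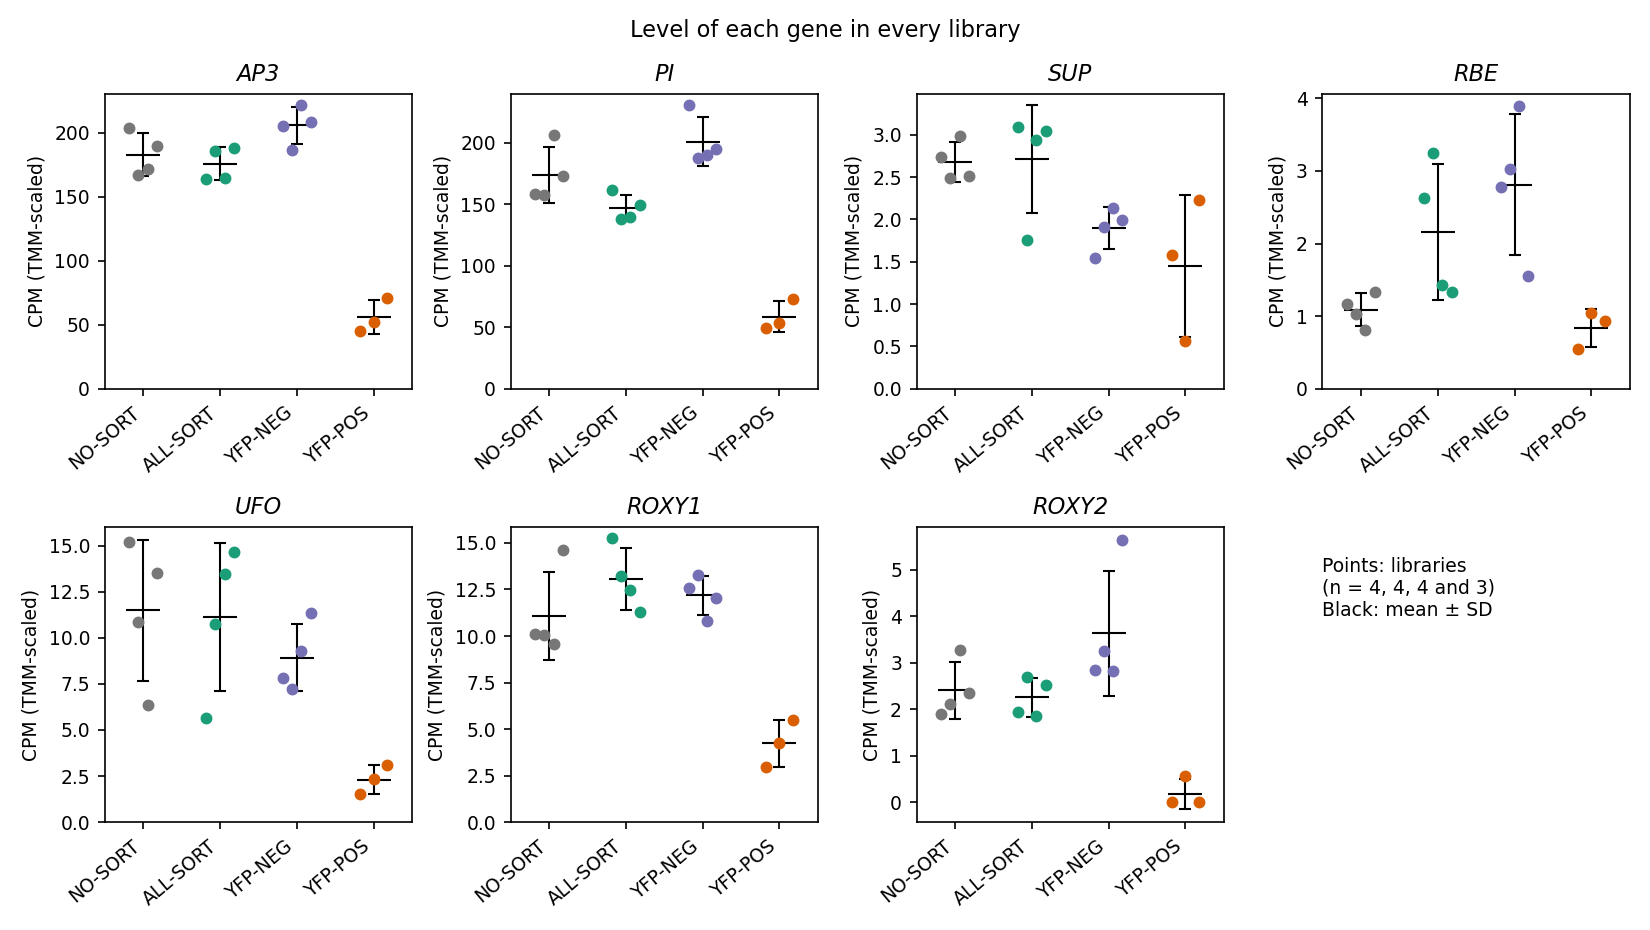
CPM of each of the 7 genes (vertical axes, linear, a scale for each gene) in every library of the 4 groups (horizontal axes), with points for libraries and black bars for mean ± SD. The YFP-POS libraries lie below every other library for AP3, PI, UFO, ROXY1 and ROXY2, overlap the YFP-NEG libraries for SUP, and overlap the NO-SORT libraries for RBE.

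Cells with SHP2 promoter activity were first set against the reporter-negative cells of the same tissue. Of the 7 genes, 6 were lower in YFP-POS and none was higher, and SUP did not pass the test. Across all genes tested, 24.4% were lower and 24.4% higher in this comparison, so a call by itself is common here. The median log2 fold change was -1.81 over the 7 genes and -0.01 over all genes. In bulk samples, fewer cells of a type and less RNA per cell cannot be told apart. The summed stress and anther markers given above also fell in YFP-POS relative to YFP-NEG, and their part in these differences was not tested.

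AP3 was at 45.3, 52.2 and 70.5 CPM in the 3 YFP-POS libraries and at 205.5, 186.8, 221.7 and 208.7 CPM in the 4 YFP-NEG libraries. Every YFP-POS library was well below every YFP-NEG library. The log2 fold change was -1.91 (SE 0.16, edgeR adjusted p = 4.30e-06). PI, its partner in the heterodimer, was at 48.9, 53.8 and 73.1 CPM in YFP-POS and at 230.9, 188.0, 189.8 and 195.2 CPM in YFP-NEG. The groups were again far apart, and replicate 3 was the highest of the YFP-POS libraries for both genes. The log2 fold change of PI was -1.81 (SE 0.16, edgeR adjusted p = 5.68e-06). These fits put AP3 at 26.7% of its YFP-NEG level and PI at 28.6%. Both genes thus remained readily detected in the YFP-POS libraries, with at least 652 counts of AP3 and 672 of PI in each. Replicate 3 also had the lowest summed medial domain markers, 629 CPM against 798 in replicate 1 and 948 in replicate 2. Whether the remaining counts came from reporter-positive cells or from other cells in the sort was not tested.

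UFO, which acts with LFY to activate AP3, was at 1.52, 2.32 and 3.09 CPM in YFP-POS and at 7.81, 7.22, 9.31 and 11.3 CPM in YFP-NEG. No YFP-POS library reached any YFP-NEG library. The fitted difference, -1.98 on the log2 scale (SE 0.30, edgeR adjusted p = 2.15e-04), was close in size to that of AP3.

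SUP, the gene of the stamen and carpel border, did not pass the test. Its YFP-POS values were 1.58, 0.560 and 2.23 CPM, from 29, 7 and 36 counts, and its YFP-NEG values were 1.55, 1.92, 2.14 and 2.0 CPM. The YFP-POS libraries spanned the YFP-NEG range, with replicate 3 above all of the latter and replicate 2 below. The log2 fold change was -0.39 (SE 0.46, edgeR adjusted p = 0.517), and its 95% interval, taken as normal from the SE, ran from -1.30 to 0.52. It moved to -0.07 without YFP-POS replicate 2 and to -0.79 without YFP-POS replicate 3, so a difference of the size seen for AP3 lies outside this interval but a smaller one does not.

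RBE, the petal gene related to SUP, differed. It was at 0.544, 1.04 and 0.928 CPM in YFP-POS, from 10, 13 and 15 counts, and at 2.78, 3.02, 3.90 and 1.55 CPM in YFP-NEG. The groups did not overlap, although YFP-NEG replicate 4 was the nearest to YFP-POS. The log2 fold change was -1.79 (SE 0.45, edgeR adjusted p = 0.00632).

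ROXY1 was at 2.94, 4.24 and 5.50 CPM in YFP-POS and at 12.6, 13.3, 10.8 and 12.1 CPM in YFP-NEG. The groups were apart, and the log2 fold change was -1.56 (SE 0.24, edgeR adjusted p = 2.19e-04). ACR6, which covers ROXY1 on the other strand, had a log2 fold change of -0.66 (edgeR adjusted p = 0.206). ROXY2 had 0, 7 and 0 counts in the 3 YFP-POS libraries, against 44, 44, 45 and 76 counts in YFP-NEG, or 2.84, 3.24, 2.83 and 5.63 CPM. It was thus not detected in YFP-POS replicates 1 and 3, where a count of 0 allows up to 3 counts, or 0.163 and 0.186 CPM. Those limits are at least 22.3-fold and 19.6-fold below the YFP-NEG mean. Over all libraries the pooled counts differed 24.0-fold, with an exact 95% interval from 11.5 to 60.5 that covers counting error only. The fitted log2 fold change was -4.48 (SE 0.85, edgeR adjusted p = 9.90e-04), and it moved to -3.83 without YFP-POS replicate 1 and to -3.88 without replicate 3. Without YFP-POS replicate 2 all remaining counts were 0 and no fold is given.

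**Figure D2:**
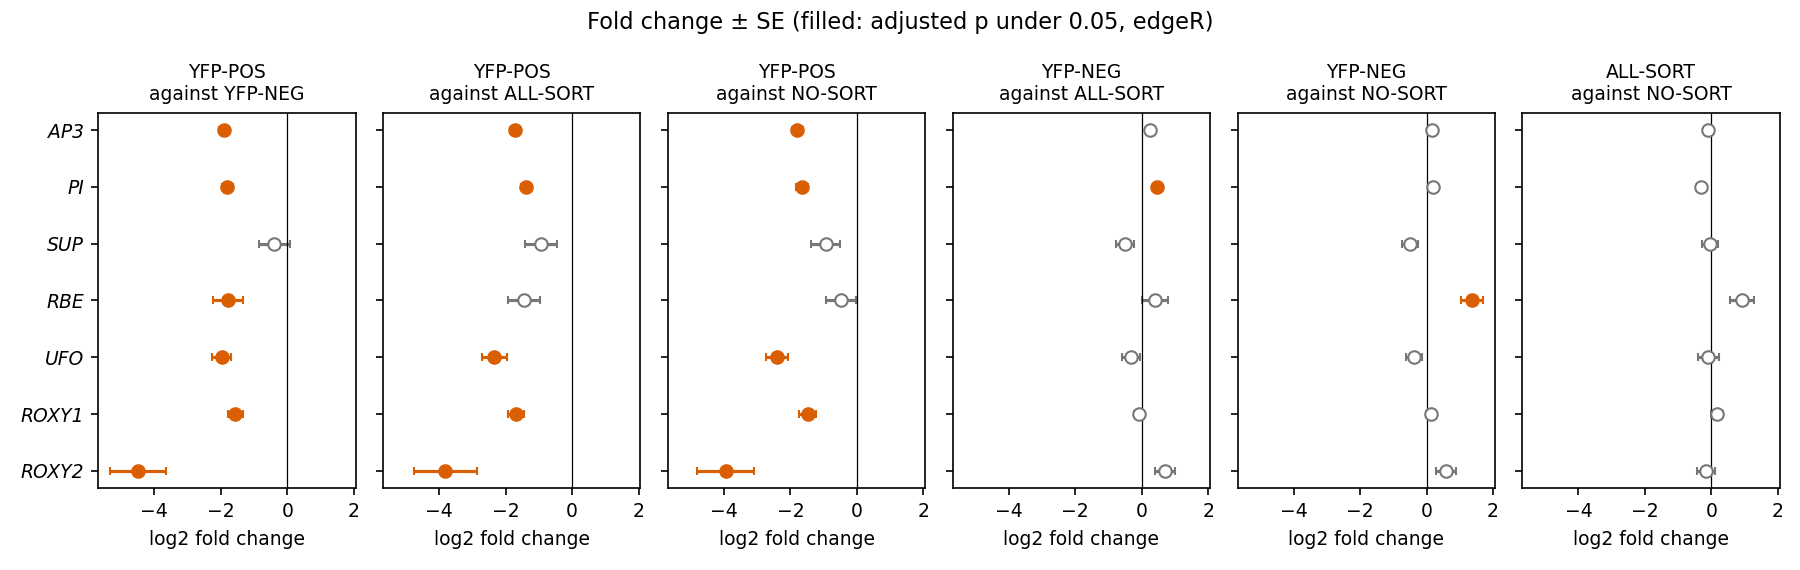
Log2 fold change (horizontal axes) of the 7 genes (vertical axis) in the 6 comparisons, with bars of 1 SE and filled points for an edgeR adjusted p under 0.05. In the 3 comparisons with YFP-POS the points of AP3, PI, UFO, ROXY1 and ROXY2 are filled and lie to the left of 0, as does RBE against YFP-NEG, while in the others only PI (YFP-NEG against ALL-SORT) and RBE (YFP-NEG against NO-SORT) are filled.

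The share that remained in YFP-POS is given for the 7 genes beside anther markers. AP3, PI, UFO, RBE and ROXY1 kept a mean of 25.9% to 34.7% of their YFP-NEG mean over the 3 libraries. Among the anther markers, SPL, which starts sporogenous cell formation, kept 32.1% ± 6.29 (SD, n = 3). TDF1, a tapetum regulator, kept 10.8% ± 6.78. DYT1, which acts ahead of it, kept 4.90% ± 3.14, and AMS kept 2.11% ± 3.05. The pooled counts of AMS were 40.3-fold lower in YFP-POS (exact 95% interval 21.7 to 84.5), and those of DYT1 22.3-fold lower (12.6 to 43.5). These intervals cover counting error only, and AMS ran from 49 to 250 counts in the YFP-NEG libraries. ROXY2 stood at 5.13% ± 8.89, a value near that of DYT1, and ROXY1 at 34.7% ± 10.5. These shares are a description of values that come from one comparison.

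**Figure D3:**
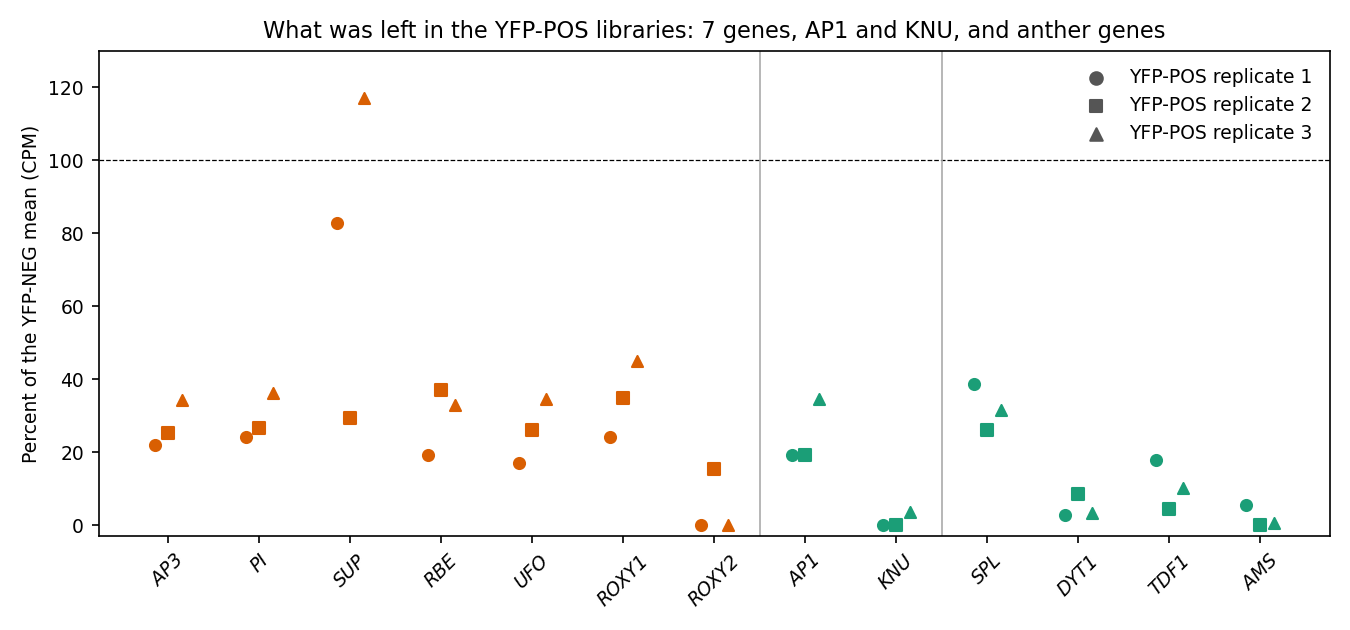
CPM in each YFP-POS library as a percent of the YFP-NEG mean (vertical axis, linear) for the 7 genes, for AP1 and KNU, and for 4 anther genes (horizontal axis), with a marker shape for each replicate and a dashed line at the YFP-NEG mean. KNU, DYT1 and AMS lie under 10%, ROXY2 is at 0 in 2 libraries and at 15.4% in replicate 2, TDF1 reaches 17.9%, the other genes but SUP lie between 17.1% and 45.2%, and SUP is spread from 29.5% to 117%.

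Comparisons of YFP-POS with ALL-SORT and with NO-SORT share the YFP-POS libraries with the one above and are given side by side with it, not as a repeat. Against ALL-SORT, 5 of the 7 genes were lower and none was higher, where 10.5% of all genes tested were lower and 3.36% higher. With the replicate number as a block, which pairs these sorts, 6 of the 7 were lower, but so were 24.5% of all genes, with 18.5% higher. The log2 fold changes were -1.72 for AP3 (SE 0.16, edgeR adjusted p = 8.91e-04) and -1.39 for PI (SE 0.16, edgeR adjusted p = 0.00130). UFO gave -2.33 (SE 0.38, edgeR adjusted p = 0.00525) and ROXY1 gave -1.70 (SE 0.24, edgeR adjusted p = 0.00305). ROXY2 gave -3.81 (SE 0.95, edgeR adjusted p = 0.0298). This last call was lost without ALL-SORT replicate 1, 2 or 3 or YFP-POS replicate 1 or 3, where the log2 fold change was -3.90 to -3.14 and the edgeR adjusted p 0.0541 to 0.0811. In those 5 fits 4.61% to 9.60% of all genes were lower. RBE, at 2.63, 3.24, 1.43 and 1.33 CPM in ALL-SORT, lay above its YFP-POS values in every library. It did not pass the test, its log2 fold change being -1.44 (SE 0.48; edgeR adjusted p = 0.0826). It passed in 3 of the other settings, at -1.58 with the replicate block (edgeR adjusted p = 0.0206), at -1.44 in a fit of all 15 libraries (edgeR adjusted p = 0.0232) and at -1.40 with DESeq2 (adjusted p = 0.0465). SUP gave -0.93 (SE 0.47, edgeR adjusted p = 0.231).

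Against NO-SORT, 5 genes were lower in YFP-POS and none higher, where 23.8% of all genes tested were lower and 22.2% higher. As log2 fold changes, AP3 gave -1.79 (SE 0.16, edgeR adjusted p = 8.13e-06) and PI -1.66 (SE 0.17, edgeR adjusted p = 2.35e-05). UFO gave -2.39 (SE 0.34, edgeR adjusted p = 2.15e-04), the value farthest from 0 after ROXY2 at -3.95 (SE 0.87, edgeR adjusted p = 0.00368), which moved to -3.30 without YFP-POS replicate 1. ROXY1 gave -1.48 (SE 0.26, edgeR adjusted p = 9.00e-04), and ACR6 on its other strand was lower too, at -1.31 (edgeR adjusted p = 0.0209). RBE was at 1.17, 1.03, 0.805 and 1.34 CPM in NO-SORT, which overlaps its YFP-POS values. Its difference of -0.47 on the log2 scale (SE 0.44, edgeR adjusted p = 0.411) did not pass, with a 95% interval from -1.34 to 0.40. SUP was at 2.74, 2.49, 2.99 and 2.51 CPM in NO-SORT, above all 3 YFP-POS libraries. Its difference of -0.94 on the log2 scale (SE 0.43, edgeR adjusted p = 0.0921) did not pass. It did pass without YFP-POS replicate 3 (-1.36, edgeR adjusted p = 0.0380) and in a fit of all 15 libraries (-0.98, edgeR adjusted p = 0.0369).

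By design, YFP-NEG and ALL-SORT differ by the removal of reporter-positive cells. Anther markers differed between them too: of the 4 tested, 2 were called higher in YFP-NEG and 0 lower. These were DYT1 (log2 fold change 1.29) and TDF1 (1.71). How much of any difference between the groups came from the removal was not tested. PI alone of the 7 genes was called, and it was higher in YFP-NEG, where 2.65% of all genes tested were higher and 10.9% lower. With the replicate block PI was called too, and the shares were 6.17% and 12.7%. PI was at 161.2, 138.0, 139.8 and 149.8 CPM in ALL-SORT, so each of the 4 libraries lay below each YFP-NEG library. The log2 fold change was 0.46 (SE 0.11, edgeR adjusted p = 0.0251). The call was lost without ALL-SORT replicate 3 (edgeR adjusted p = 0.0767) and without YFP-NEG replicate 1, 3 or 4 (edgeR adjusted p = 0.0806, 0.0573 and 0.0593). In those 4 fits 0.477% to 0.81% of all genes were higher. AP3, at 164.2, 185.4, 164.9 and 188.3 CPM in ALL-SORT, gave a smaller difference, 0.24 on the log2 scale (SE 0.11, edgeR adjusted p = 0.159). ROXY2 was at 1.93, 2.70, 1.85 and 2.53 CPM in ALL-SORT, below each YFP-NEG library, and its log2 fold change was 0.69 (SE 0.30, edgeR adjusted p = 0.148). It moved to 0.40 without YFP-NEG replicate 4, the library with the highest value. The others gave 0.40 for RBE, -0.50 for SUP, -0.31 for UFO and -0.09 for ROXY1, with edgeR adjusted p-values from 0.242 to 0.700.

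ALL-SORT and NO-SORT differ by protoplast isolation and sorting. None of the 7 genes was called by edgeR, where 9.84% of all genes tested were higher and 3.6% lower in ALL-SORT. Without ALL-SORT replicate 4, the library that stood apart, those shares were 15.3% and 14.4%. DESeq2 and limma-voom called none either. The lowest adjusted p-values of the 7 were those of RBE, with a log2 fold change of 0.93 (edgeR adjusted p = 0.112), and PI, with -0.30 (edgeR adjusted p = 0.133). Without ALL-SORT replicate 4, RBE was higher by 1.12 (edgeR adjusted p = 0.0421), beside the 15.3% of all genes that were higher in that fit. Without that library and NO-SORT replicate 1 it gave 1.14 (edgeR adjusted p = 0.0591). AP3 was at 203.8, 166.5, 172.0 and 189.3 CPM in NO-SORT, which overlaps ALL-SORT, and its log2 fold change was -0.11 (edgeR adjusted p = 0.467). The 95% interval was -0.32 to 0.09 for AP3. PI was at 158.4, 157.9, 206.2 and 172.8 CPM in NO-SORT, and its interval was -0.54 to -0.05. UFO varied widely in both groups, at 15.2, 10.9, 6.38 and 13.5 CPM in NO-SORT and 5.65, 10.7, 13.5 and 14.7 CPM in ALL-SORT. ROXY1 was at 10.1, 10.1, 9.60 and 14.6 CPM in NO-SORT and at 15.2, 13.2, 12.4 and 11.3 CPM in ALL-SORT. SUP in ALL-SORT was at 3.09, 1.76, 2.94 and 3.05 CPM. ROXY2 was at 1.89, 2.11, 3.28 and 2.34 CPM in NO-SORT. SUP, UFO, ROXY1 and ROXY2 overlapped between the groups, with log2 fold changes from -0.15 to 0.18.

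RBE alone of the 7 genes was called between YFP-NEG and NO-SORT, and it was higher in YFP-NEG. Each of its YFP-NEG libraries lay above each NO-SORT library. The log2 fold change was 1.37 (SE 0.34, edgeR adjusted p = 0.00440), where 25.7% of all genes tested were higher and 25.9% lower. The stress genes were higher in YFP-NEG as well, 4 of 4, and their part in this difference was not tested. AP3 (0.17), PI (0.21), ROXY1 (0.13), ROXY2 (0.58), UFO (-0.36) and SUP (-0.50) did not pass as log2 fold changes. SUP was lower in each YFP-NEG library than in each NO-SORT library (edgeR adjusted p = 0.112). Without NO-SORT replicate 3, PI (0.30, edgeR adjusted p = 0.0414) and UFO (-0.56, edgeR adjusted p = 0.0244) were called too. RBE in ALL-SORT, from 1.33 to 3.24 CPM, overlapped the YFP-NEG libraries and, by its lowest library, the highest NO-SORT library at 1.34 CPM.

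AP3 and PI act as a pair, so their ratio of counts was followed in each library. The log2 ratio of AP3 to PI was 0.08 ± 0.26 in NO-SORT (SD, n = 4), 0.26 ± 0.17 in ALL-SORT, 0.04 ± 0.17 in YFP-NEG and -0.07 ± 0.04 in YFP-POS (n = 3). None of the 6 pairs of groups passed a two-sided exact permutation test, with Benjamini-Hochberg adjusted p-values from 0.343 to 0.800. The smallest unadjusted p that this test allows is 0.0286. A difference in a lone pair could therefore not pass after adjustment, and an unchanged ratio does not follow. The difference of YFP-POS from YFP-NEG was -0.10. The difference farthest from 0 was -0.32, between YFP-POS and ALL-SORT (exact permutation p = 0.0571). Within same-numbered libraries the ratio was lower than in ALL-SORT in 4 of 4 YFP-NEG libraries (differences of -0.44 to -0.02) and in 3 of 3 YFP-POS libraries (-0.47 to -0.14). A two-sided exact sign-flip test gave p = 0.125 and 0.25, the smallest that 4 and 3 pairs allow. The log2 ratio of ROXY1 to ROXY2 was 2.20 ± 0.47 in NO-SORT, 2.53 ± 0.38 in ALL-SORT and 1.79 ± 0.47 in YFP-NEG. In YFP-POS it was 6.77, 2.83 and 7.48 in the 3 libraries, and the outer values rest on the 0.5 counts added to a ROXY2 count of 0. YFP-POS lay above YFP-NEG in every library, by 3.90 on average, a size that depends on the added count: it was 2.55 with 2 counts added and 5.46 with 0.1. The two-sided exact permutation p was 0.0286, the smallest that 3 against 4 libraries allow, and 0.0571 after adjustment over the 6 pairs. Paired by replicate number, the differences were 4.63, 0.81 and 5.56, with 0.81 in replicate 2, the only YFP-POS library with ROXY2 counts. The two-sided exact sign-flip p was 0.25, the smallest that 3 pairs allow. The difference of YFP-NEG from ALL-SORT was -0.73, with the same exact permutation p-values, and it was -0.50 without YFP-NEG replicate 4. Its 4 same-numbered pairs gave -1.05 to -0.26 (two-sided exact sign-flip p = 0.125, the smallest that 4 pairs allow).

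**Figure D4:**
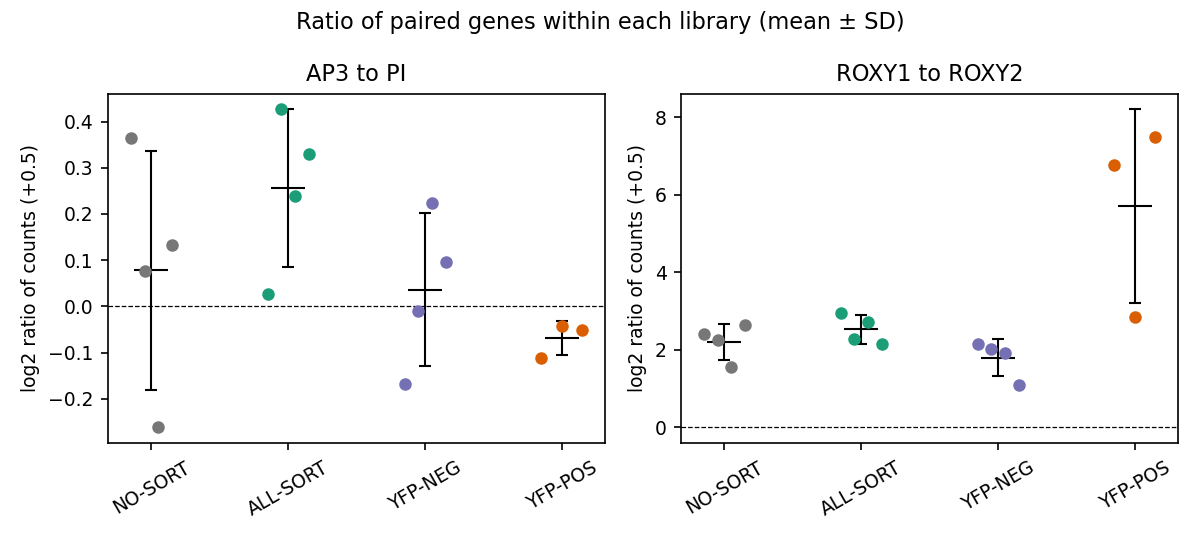
Log2 ratio of counts with 0.5 added (vertical axes) of AP3 to PI and of ROXY1 to ROXY2 in every library of the 4 groups (horizontal axes), with black bars for mean ± SD. The AP3 to PI ratio stays between -0.26 and 0.43 in all libraries, and the ROXY1 to ROXY2 ratio reaches 6.77 and 7.48 in the 2 YFP-POS libraries without a ROXY2 count.

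The genes known to work with the 7 were counted in YFP-POS against YFP-NEG by role. Across all genes tested, 24.4% were lower and 24.4% higher in this comparison, so some calls are common in any list. Among 9 partners and activators of the B-class genes, 4 were lower, 1 was higher and 4 did not pass, with a median log2 fold change of -0.21. AP1, the petal partner, was lower by the most, at -2.06 on the log2 scale (SE 0.20, edgeR adjusted p = 1.12e-05). Mean levels were 42.3 ± 15.3 CPM over 3 YFP-POS libraries and 172.9 ± 13.3 CPM over 4 YFP-NEG libraries, and the transgene is counted in both. SEP4 (-1.55), LFY (-0.72) and AP2 (-0.64) were the others lower. AG, the stamen and carpel partner, was higher by 0.69 (SE 0.13, edgeR adjusted p = 7.43e-04). SEP3, which bridges MADS-domain complexes, was at 168.4 ± 11.4 CPM in YFP-POS and 190.6 ± 6.01 in YFP-NEG. SEP1, SEP2 and SEP3, and ASK1, a partner of UFO in the SCF complex, did not pass the test.

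Of the 6 TGA factors, the class that ROXY proteins bind, 4 were lower and 1 was higher, with a median log2 fold change of -0.74. Across all genes tested, 24.4% were lower and 24.4% higher. TGA9 and TGA10, which act in anther development with ROXY1 and ROXY2, gave -0.85 (edgeR adjusted p = 0.00155) and -0.64 (edgeR adjusted p = 0.0254). TGA7 gave -1.80 and TGA3 gave -1.09. PAN, a regulator of floral organ number whose product binds ROXY1, was higher by 1.25 (SE 0.14, edgeR adjusted p = 2.92e-05), at 85.6 ± 11.6 CPM in YFP-POS and 35.4 ± 4.25 in YFP-NEG. PAN overlaps genes on the other strand, so its counts share the uncertainty of ROXY1. Among the other list and marker genes, SEP1, SHP2, SHP1, CRC, STK, AMS, WRKY40 and RRTF1 also overlap genes on the other strand in part. The same uncertainty holds for their counts. TGA2 did not pass.

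Of 6 genes of petals and organ borders that act with RBE, 3 were higher in YFP-POS and none was lower. Their median log2 fold change was 0.85, and 24.4% of all genes tested were higher and 24.4% lower. CUC2, a border gene, was higher by 2.09 (SE 0.20, edgeR adjusted p = 1.05e-05), CUC1 by 1.32 and PTL, a petal gene that acts ahead of RBE, by 1.47. PTL was at 27.4 to 31.0 CPM in the 3 YFP-POS libraries and at 8.55 to 11.9 CPM in the 4 YFP-NEG libraries, so PTL and RBE differed in opposite directions. TCP4, TCP5 and JAG did not pass. Against NO-SORT, YFP-NEG was lower for 5 of these 6 genes, and RBE was higher. In that comparison 25.9% of all genes tested were lower and 25.7% higher, and it holds protoplast isolation, sorting and selection together.

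Genes downstream of AP3 and PI were 6, of which 5 could be tested and 2 were lower, where 24.4% of all genes tested were lower. NAP, a target that the B-class proteins activate, gave -2.11 (SE 0.21, edgeR adjusted p = 1.15e-05). GNC gave -2.54 (SE 0.45, edgeR adjusted p = 6.25e-04), although it is known as a gene that the B-class proteins repress. GNL, BNQ1 and BNQ2 did not pass, and BNQ3 was below the filter. The median over the 5 was -1.01.

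Of 3 genes that act with SUP, 1 was higher in YFP-POS than in YFP-NEG, 1 was lower and 1 did not pass. Over all genes tested, 24.4% were higher and 24.4% lower. YUC4, an auxin synthesis gene that SUP is known to repress, was higher by 2.27 (SE 0.23, edgeR adjusted p = 1.42e-05), at 24.2 to 39.1 CPM in YFP-POS and 4.97 to 8.70 CPM in YFP-NEG. YUC1, the other such gene, did not pass. KNU, a related zinc finger gene that ends stem cell activity in the flower, had 1 count in the 3 YFP-POS libraries together and 97 in the 4 YFP-NEG libraries. That is a ratio of 78.1 in pooled counts, with an exact 95% interval from 13.7 to 3116 for counting error only. Its edgeR adjusted p was 1.87e-04.

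**Figure D5:**
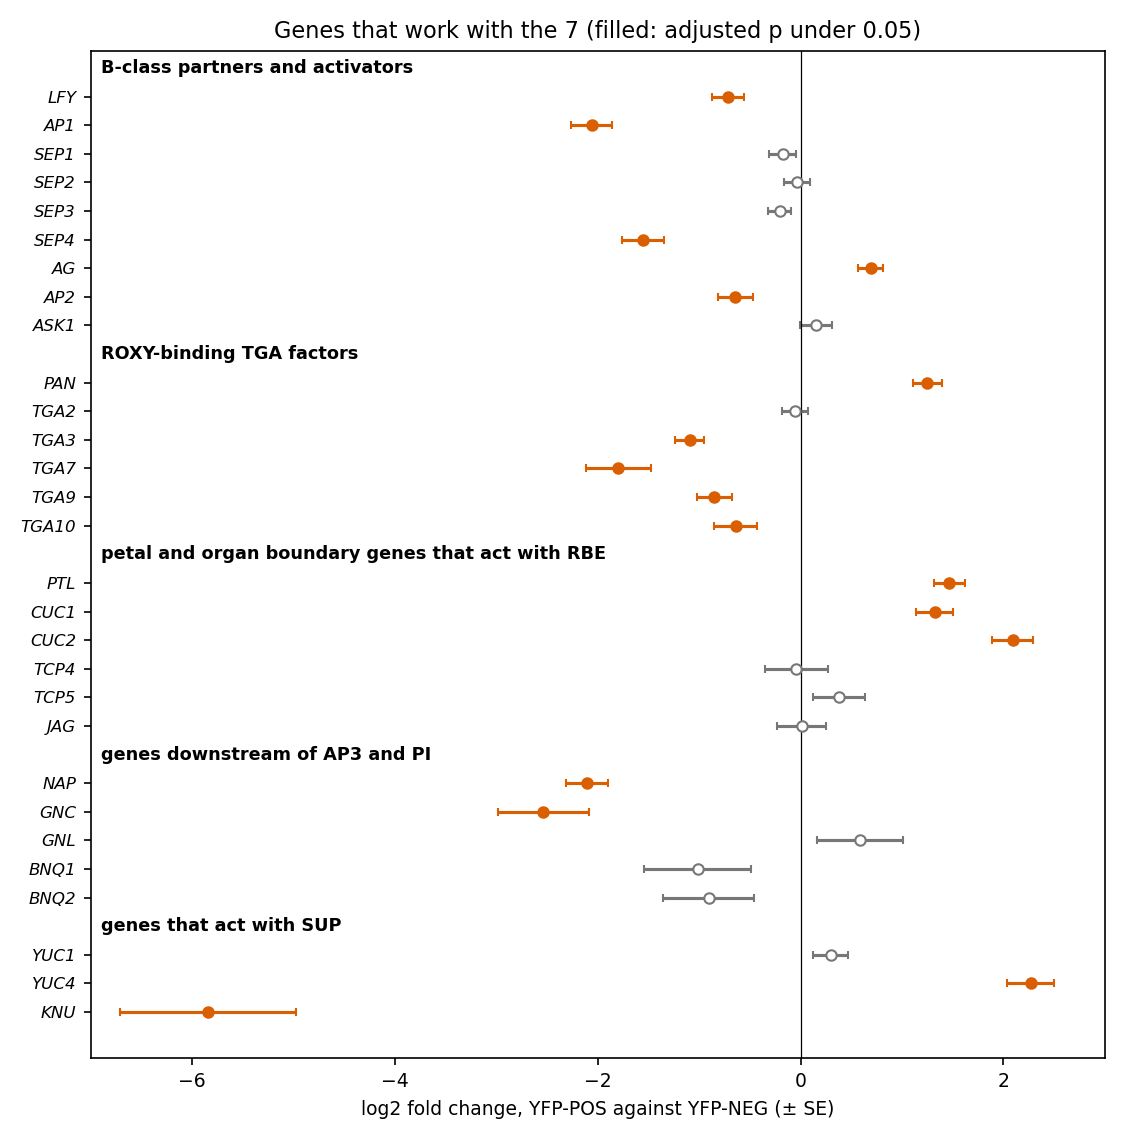
Log2 fold change between YFP-POS and YFP-NEG (horizontal axis, bars of 1 SE) of the tested genes of 5 lists that work with the 7 (vertical axis), filled for an edgeR adjusted p under 0.05. AP1, NAP and GNC lie at -2.06, -2.11 and -2.54 and KNU farthest to the left, while PTL, CUC1, CUC2, PAN and YUC4 lie between 1.25 and 2.27.

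The genes most alike to each of the 7 across the 15 libraries were found among 19475 genes by Pearson's r of log2 CPM, which follows the differences between the 4 groups and depends on shared libraries. AP3 was closest to AT4G09890 (r = 0.987), IDD4 (0.985) and AGL71, a MADS-box gene (0.985). AGL71 was at 37.5 CPM in NO-SORT, 31.9 in ALL-SORT, 41.8 in YFP-NEG and 6.97 in YFP-POS as group means. PI was closest to AT3G47560 (r = 0.990), AGL8, the fruit gene FRUITFULL (0.986), and AT2G31220 (0.984). AGL8 was at 110 CPM in NO-SORT, 92.9 in ALL-SORT, 129 in YFP-NEG and 30.9 in YFP-POS. UFO was closest to AT5G55450 (0.964), NPC2 (0.962) and HB-8 (0.961), and ROXY1 to TRM27 (0.967), RBP47C (0.965) and MGL (0.963). ROXY2 (closest gene AT1G32470, r = 0.959), RBE (CPC, a root-hair and trichome MYB gene, 0.920) and SUP (AAE16, 0.912) had lower values at the head of their lists. The second for RBE was KIN1, a cold and stress gene (0.915), at 13.6 CPM in NO-SORT, 34.5 in ALL-SORT, 46.8 in YFP-NEG and 13.3 in YFP-POS. The third was AT2G37750 (0.912), at 0.272, 0.498, 0.621 and 0.0679 CPM in the same order. Next for ROXY2 were AT5G61290 (0.955) and AT2G28090 (0.954), and for SUP AT2G31920 (0.905) and AT1G71691 (0.901).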

How the data were processed

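RNA was measured by sequencing in 15 libraries, each run in 2 lanes (30 samples), from about 100 ng of RNA with a strand-specific kit and single-end reads of 125 cycles, per the labels' protocols. The authors deposited 2 tables of raw counts per locus, with the lanes of a library in 1 column and no normalization. The submitters' processing notes name TAIR10, TopHat2 2.0.10, HTSeq and Cufflinks 2.2.1, and how strand was counted is not given in the sources used here. Columns were assigned to groups by name.

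Groups were compared with edgeR 4.0.16 (quasi-likelihood F test, R 4.3.3) on the 2 groups compared, with filterByExpr, TMM scaling and Benjamini-Hochberg adjustment over all genes tested. Calls required an adjusted p under 0.05. The SE is the log2 fold change over the square root of F. CPM were TMM-scaled over all 15 libraries, and CPM per kb used exon lengths of RefSeq TAIR10.1, matched by locus for 97.7% of loci. No coordinates were moved between builds. The fit was checked on simulated counts. Ratios within libraries used 0.5 added counts and exact permutation tests over 6 pairs of groups. Pooled-count intervals are exact at 95% and, like the floor of 3 counts, cover counting error only.

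Same-numbered libraries deviated together across genes in the 3 comparisons among sorted groups (correlations 0.185 to 0.294 for YFP-POS against YFP-NEG, 0.123 to 0.351 for YFP-NEG against ALL-SORT and 0.360 to 0.434 for YFP-POS against ALL-SORT), above the limit of 0.1. The numbers were therefore read as pairing the sorts. With NO-SORT they did not (-0.08 to 0.09).

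The 7 genes, the gene lists and the tests were chosen with earlier results of these data known. All 7 genes are named in each comparison, genes of the lists are all counted with values for those that changed most or act beside one of the 7, and the 3 genes most alike are named by Pearson's r. Alternatives were other scalings, filters and tools (DESeq2 1.42.0, limma-voom 3.58.1), a fit of all libraries, a replicate block, a stricter threshold, other pseudocounts and each library left out. Leaving out ALL-SORT replicate 4 together with NO-SORT replicate 1, and the sign-flip test of ratios within same-numbered libraries, were chosen after seeing the data.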

Additional observations from a re-analysis of the deposited data

Results flagged for a closer look

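In 4 of the 21 sets of 4 libraries examined (each of the 7 genes in NO-SORT, ALL-SORT and YFP-NEG), a library stood far from the others by Dixon's test, which chance does in about 1 of 20. PI was at 230.9 CPM in YFP-NEG replicate 1, where the others were at 188.0 to 195.2. SUP was at 1.76 CPM in ALL-SORT replicate 2, where the others were at 2.94 to 3.09. ROXY1 was at 14.6 CPM in NO-SORT replicate 4, where the others were at 9.60 to 10.1. ROXY2 was at 5.63 CPM in YFP-NEG replicate 4, where the others were at 2.83 to 3.24. That last library also had the highest summed level of anther markers in its group, 49.6 CPM against 25.6 to 26.3 in the others, and the part of these markers in the ROXY2 value was not tested.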

How the results depend on the processing

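Across the other scalings, filters and tools, and with each library left out, 6 of the 7 genes were called lower in YFP-POS against YFP-NEG. Against ALL-SORT the number was 4 to 6 and against NO-SORT 5 to 6. With the replicate block the numbers were 6, 6 and 5, and the paired fit changed no call other than that of RBE between YFP-POS and ALL-SORT. Between ALL-SORT and NO-SORT the number called was 0, with 0 to 1 when a library was left out. For YFP-NEG against ALL-SORT the number was 1, with 0 to 1 when a library was left out and 0 at an adjusted p under 0.01. Between YFP-NEG and NO-SORT it was 1, with 1 to 3 when a library was left out. Small differences that had not passed a test changed sign when a library was left out, and the cause was not tested. These were, as log2 fold changes of ALL-SORT against NO-SORT, UFO (-0.29 to 0.14), SUP (-0.11 to 0.13) and ROXY2 (-0.31 to 0.0446), ROXY1 in YFP-NEG against ALL-SORT (-0.16 to 0.0102), and the log2 ratio of AP3 to PI in YFP-NEG against NO-SORT (-0.16 to 0.0534). With library totals in place of TMM, the median over all genes (log2) went from -0.04 to -0.16 in ALL-SORT against NO-SORT, to -0.12 in YFP-NEG against NO-SORT and from 0.01 to -0.14 in YFP-POS against NO-SORT. The genes called higher were then 1480 of 2745 called (1844 of 2518 with TMM), 3663 of 9764 (4849 of 9745) and 2904 of 8353 (4186 of 8685). Upper-quartile scaling gave 860 of 2456 in YFP-NEG against ALL-SORT (494 of 2532 with TMM). No call on the 7 genes changed with library totals. Over all genes, YFP-POS against ALL-SORT gave 8074 calls with the replicate block and 4665 in a fit of all 15 libraries (2598 in the fit reported), and ALL-SORT against NO-SORT gave 3842 with DESeq2 (2518). With a library left out the calls ran from 1134 to 3082 and from 1204 to 5632, and from 870 to 2984 in YFP-NEG against ALL-SORT (2532). Low counts of SUP, RBE and ROXY2 (under 80 in each library) limit what could be detected for them.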
